A study of Mus musculus with 12 samples.

Results

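A set of 37 genes of the cell cycle and DNA replication was followed among the 32867 genes counted in mouse retina. The genes were picked by name for their known roles, and each of the 37 matched 1 gene of the count table. RNA of whole retina was sequenced from 3 models of inherited retinal degeneration and from wild-type mice, with 3 libraries in each of 4 groups. Pde6b rd1 mice carry a mutation of the rod phosphodiesterase subunit Pde6b and were sampled at postnatal day 13. Pde6b rd10 mice carry another mutation of Pde6b and were sampled at day 23. Prph rd2 mice carry a mutation of peripherin, a protein of the photoreceptor outer segment, and were sampled at day 29. The C3H wild-type mice carry the normal alleles of Pde6b and Prph2, and their 3 libraries are labelled with days 13, 23 and 29, 1 library each. The days were chosen by the study as the peak of photoreceptor death in each model. Per the study's methods, Pde6b rd1, Prph rd2 and wild type share the C3H background and Pde6b rd10 mice are C57Bl6/J, whereas the label of the Prph rd2 libraries names C57BL6/J. No source gives the number of retinas or animals behind a library, so the p-values measure the spread between these libraries.

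The cell cycle copies the genome in S phase and divides it in mitosis. D-type and E-type cyclins start S phase through the E2F factors, which switch on the MCM helicase, its loader Cdc6 and the enzymes that make nucleotides. Later, Cdk1 with A-type and B-type cyclins drives mitosis, while the spindle checkpoint, the kinetochore and the motor proteins of the spindle carry the chromosomes apart. In the mouse retina the progenitors stop dividing within the first days after birth, and neurons and glia are then normally out of the cycle. Dividing cells of a degenerating retina are best known among microglia, and a few of these genes, such as Ccnd1 in Mueller glia, are also expressed in cells that do not divide.

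Between 17049495 and 24755890 reads per library were counted on genes, and a count of 3 reads, taken as the limit of detection, corresponds to 0.121 to 0.176 CPM. No 2 libraries of a group agreed within sampling noise, with a chi-square per degree of freedom over genes from 1.67 to 10.1. The rod, cone, bipolar, amacrine, horizontal, ganglion and Mueller glia markers each had over 3 reads in at least 1 library of every group. Xist, expressed from the inactive X chromosome of females, had 8 to 10 reads in C3H and 64914 to 83716 in Pde6b rd1, while the Y-linked Ddx3y had 1481 to 2005 reads in C3H and 0 in Pde6b rd1, so that sex differs with the group. In Pde6b rd10 and Prph rd2 both genes were read, Xist at 13428 to 18861 and 37187 to 47452. Day, strain as far as it differs, sex and mutation cannot be told apart in these comparisons.

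The cell cycle genes were low throughout the retina. In C3H their mean levels ran from 0.0706 FPKM (SD 0.0244, n = 3) for Cdc6 to 14.5 FPKM (SD 0.913) for Pcna, the sliding clamp of the replication fork. Ccnd1, at 4.02 FPKM (SD 0.174), and the helicase subunit Mcm4, at 3.96 FPKM (SD 0.248), came next, and their difference was smaller than the spread between libraries. FPKM are scaled by gene length and by library size, so that these levels can be compared between genes. A gene is called higher or lower below where edgeR's quasi-likelihood test gave an unadjusted p under 0.05 with a fold change of at least 1.5, and the Benjamini-Hochberg adjusted p of the same test over all genes tested stands beside single values.

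The share of these genes called higher stood furthest above the share over all genes in Pde6b rd1. In Pde6b rd10 it was nearer to that share, at 22.22% beside 15.9%. It rested there on 8 genes, 1 of them Cdc6, whose call carries no weight, as given below. Against C3H, 13 of the 35 members tested (37.14%) were called higher and 2 lower in Pde6b rd1, where 8.98% of all 18310 genes tested were called higher and 6.03% lower. In Pde6b rd10, 8 of 36 (22.22%) were called higher and 2 lower, against 15.9% and 8.08% of 18704 genes. In Prph rd2, 1 of 35 (2.857%) was called higher and 3 (8.571%) lower, against 2.68% and 1.89% of 18581 genes. The median log2 fold change of the members tested was 0.49, 0.26 and -0.13 for Pde6b rd1, Pde6b rd10 and Prph rd2, beside -0.011, -0.002 and -0.001 over all genes. With an adjusted p under 0.05 and the same fold, 11 members were higher and 2 lower in Pde6b rd1 (8.35% and 5.43% of all genes), 8 and 2 in Pde6b rd10 (15.4% and 7.67%), and 1 and 2 in Prph rd2 (1.06% and 1.01%). In whole retina, fewer cells of a type and less RNA per cell cannot be told apart.

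Few members fell to the filter on low counts. Aurkb, a mitotic kinase with 5 to 15 reads per library, was tested in no comparison, and Cdc6 was not tested in Pde6b rd1 or Prph rd2 against C3H. In the Pde6b rd1 comparison, Rrm2 and Birc5 were over the filter in all libraries of that model but not in all of C3H. The same held for Cdc6 and Rrm2 in the Pde6b rd10 comparison. Ccnb1, Bub1 and Kif23 in the Prph rd2 comparison, and Bub1 and Kif23 in the Pde6b rd10 comparison, were over it in all libraries of C3H alone. A gene tested because of its higher group is favoured for a call, although Rrm2 in Pde6b rd10 and Ccnb1 and Kif23 in Prph rd2 were not called. The calls of Rrm2 and Birc5 in Pde6b rd1, Cdc6 in Pde6b rd10 and Bub1 in Prph rd2 are therefore given no weight in the counts. Of the 33 members over the filter in all C3H libraries, 11 were called higher and 2 lower in Pde6b rd1, 7 higher and 2 lower in Pde6b rd10, and 1 higher and 3 lower in Prph rd2. These counts keep members over the filter in all libraries of C3H alone, so the 3 lower in Prph rd2 still include Bub1. The shares over all genes given above were not taken under this rule. On log2(FPKM + 1), a scale that shrinks changes of genes below 1 FPKM, only 11 of the 61 calls made on members over all comparisons were kept by limma, against 49 with 0.1 added in place of 1.

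**Figure D1:**
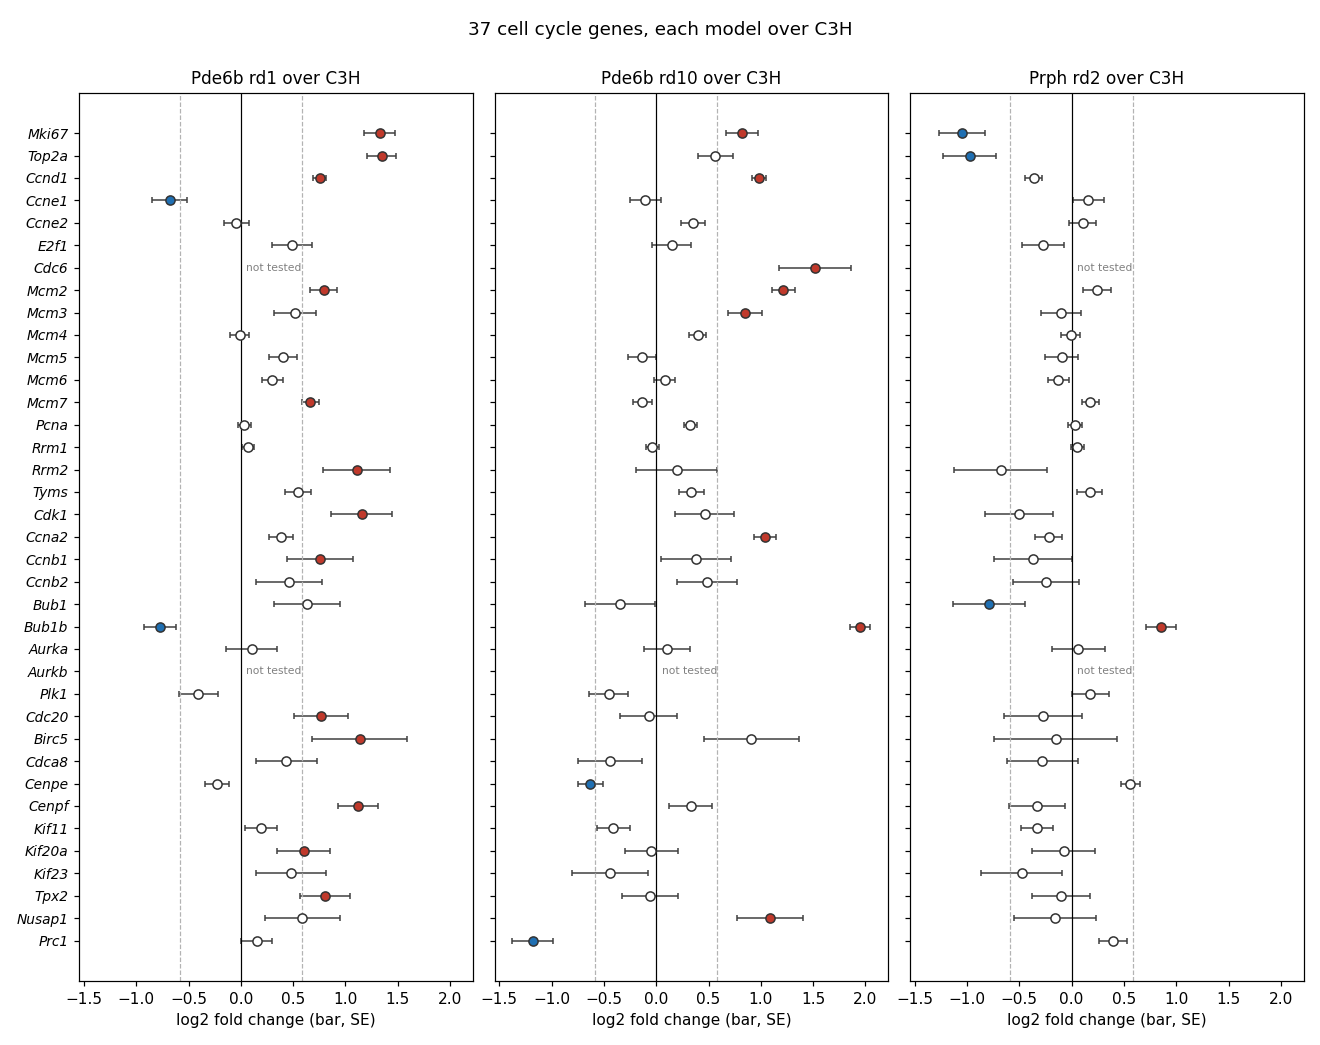
Log2 fold change of each of the 37 genes over C3H in the 3 models (point, edgeR estimate; bar, SE), red where called higher, blue where called lower and white where not called, with dashed lines at a fold of 1.5. There are 13 red points for Pde6b rd1, 8 for Pde6b rd10 and 1 for Prph rd2.

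Promoter sequences are shown for the members called higher in a model with the smallest p, since the genes of this set are known for a shared promoter grammar. The cell cycle homology region (CHR, TTTGAA or TTCGAA) marks genes of G2 and mitosis and is often paired with CCAAT boxes, while E2F sites mark genes of S phase. Among the first 6 members by p, Ccnd1 and Ccna2 had no entry in the promoter table, and the other four are printed 5′ to 3′ from 250 bases before to 50 bases after the RefSeq start (GRCm38.p6), with every match to CHR, CCAAT or an E2F site (the letters TTCCCGC, the letters TTCGCGC, the letters TTGCCGC or the letters TTGGCGC) on either strand in capitals. TTCGAA reads the same on both strands, and the final letters of CCAAT on the other strand can overlap TTGGCGC. The windows are chr2:118597961-118598260 (+) for Bub1b, chr6:88898731-88899030 (-) for Mcm2, chr11:99024140-99024439 (-) for Top2a and chr7:135716330-135716629 (-) for Mki67.
Bub1b: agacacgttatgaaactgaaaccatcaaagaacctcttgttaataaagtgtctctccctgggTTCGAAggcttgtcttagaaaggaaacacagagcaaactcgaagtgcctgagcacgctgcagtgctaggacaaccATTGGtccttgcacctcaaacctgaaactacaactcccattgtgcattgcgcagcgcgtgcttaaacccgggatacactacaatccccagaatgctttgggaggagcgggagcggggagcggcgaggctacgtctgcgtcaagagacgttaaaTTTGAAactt
Mcm2: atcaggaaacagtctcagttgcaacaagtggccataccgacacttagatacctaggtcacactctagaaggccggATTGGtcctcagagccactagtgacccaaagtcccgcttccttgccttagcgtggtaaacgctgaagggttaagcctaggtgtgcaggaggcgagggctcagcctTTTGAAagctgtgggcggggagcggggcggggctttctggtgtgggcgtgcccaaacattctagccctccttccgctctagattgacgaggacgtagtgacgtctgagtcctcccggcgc
Top2a: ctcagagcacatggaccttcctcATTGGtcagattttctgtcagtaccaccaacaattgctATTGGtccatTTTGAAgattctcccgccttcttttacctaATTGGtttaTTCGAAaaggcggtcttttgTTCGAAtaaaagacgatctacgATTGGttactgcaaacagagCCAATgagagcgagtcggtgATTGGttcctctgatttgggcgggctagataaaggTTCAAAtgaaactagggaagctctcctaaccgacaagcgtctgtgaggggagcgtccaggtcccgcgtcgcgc
Mki67: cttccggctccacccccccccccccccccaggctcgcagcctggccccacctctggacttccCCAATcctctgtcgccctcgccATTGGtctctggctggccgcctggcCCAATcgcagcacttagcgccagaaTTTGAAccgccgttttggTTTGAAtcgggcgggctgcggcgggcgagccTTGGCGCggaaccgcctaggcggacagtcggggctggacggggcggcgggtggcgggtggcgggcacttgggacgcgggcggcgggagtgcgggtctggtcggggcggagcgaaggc

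Each of these windows held at least 1 CHR and at least 1 CCAAT. Top2a carried 4 CHR and 6 CCAAT matches and no E2F match, Bub1b 2 CHR and 1 CCAAT, Mcm2 1 of each, and Mki67 2 CHR, 3 CCAAT and the only E2F match among them. Promoters were found for 30 members, with 32 windows. A CHR was present in 53.12% of the members' windows and 19.23% of all 32851 promoter windows, an E2F site in 34.38% and 9.574%, and a CCAAT box in 81.25% and 37.41%. A match describes these letters and is no measured binding site.

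Of the general proliferation markers, Mki67 was called in all 3 models and Top2a in Pde6b rd1 and Prph rd2, both higher in the Pde6b models where called and lower in Prph rd2. Mki67 (chr7:135689784-135716361, GRCm38), the Ki-67 antigen of cycling cells, was at 0.315, 0.261 and 0.251 FPKM in C3H, 0.787, 0.618 and 0.764 in Pde6b rd1, 0.562, 0.483 and 0.462 in Pde6b rd10, and 0.168, 0.112 and 0.127 in Prph rd2. No 2 of the 4 groups overlapped. Mki67 was 2.51-fold higher in Pde6b rd1 (log2 fold change 1.33, SE 0.15, edgeR adjusted p = 8.72e-08) and 1.77-fold higher in Pde6b rd10 (0.82, SE 0.15, adjusted p = 0.00013), and 2.07-fold lower in Prph rd2 (-1.05, SE 0.22, adjusted p = 0.00749). Behind these levels stood 50 to 63 reads per library in C3H and 27 to 40 in Prph rd2.

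Top2a (chr11:98992943-99024189), the topoisomerase that untangles replicated chromosomes, was at 0.280, 0.300 and 0.269 FPKM in C3H and 0.721, 0.813 and 0.749 in Pde6b rd1. In Pde6b rd10 it was at 0.466, 0.474 and 0.366, and in Prph rd2 at 0.202, 0.0927 and 0.146. Again no 2 groups overlapped, with Pde6b rd1 on top and Prph rd2 below C3H. Top2a was 2.54-fold higher in Pde6b rd1 (log2 1.34, SE 0.14, edgeR adjusted p = 3.52e-08) and 1.97-fold lower in Prph rd2 (-0.98, SE 0.26, adjusted p = 0.0268). Its log2 fold change in Pde6b rd10 was 0.57 (SE 0.17, adjusted p = 0.00679), below the 1.5-fold threshold.

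Of the 11 genes of S phase entry and origin licensing, 3 of the 10 tested in Pde6b rd1 were called higher (Ccnd1, Mcm2 and Mcm7) and 1 lower. Over all genes, 8.98% were called higher and 6.03% lower there. In Pde6b rd10, 4 of 11 were called higher (Ccnd1, Mcm2, Mcm3 and Cdc6), beside 15.9% of all genes. The call of Cdc6 is given no weight, as stated above. These counts share the C3H libraries, and no gene of the group was called in Prph rd2. Ccnd1, the cyclin D1 that opens G1, was at 4.01, 3.84 and 4.19 FPKM in C3H, 7.16, 7.16 and 7.02 in Pde6b rd1, and 8.65, 8.30 and 7.69 in Pde6b rd10. Every library of both models lay above every C3H library, and the log2 fold change was 0.75 (SE 0.06, edgeR adjusted p = 5.72e-10) in Pde6b rd1 and 0.98 (SE 0.07, adjusted p = 1.39e-10) in Pde6b rd10. In Prph rd2, at 2.94 to 3.38 FPKM, all libraries lay below C3H by a log2 fold change of -0.36 (SE 0.08, adjusted p = 0.0116) that did not reach 1.5-fold.

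The MCM2-7 complex is the replicative helicase, and its 6 subunits differed in their calls. Mcm2 was at 0.616, 0.664 and 0.747 FPKM in C3H, 1.17, 1.10 and 1.42 in Pde6b rd1, 1.56, 1.63 and 1.70 in Pde6b rd10, and 0.851, 0.757 and 0.842 in Prph rd2. It was called higher in Pde6b rd1 (log2 0.79, SE 0.13, edgeR adjusted p = 2.24e-05) and in Pde6b rd10 (1.21, SE 0.11, adjusted p = 9.18e-09), and Pde6b rd10 lay above Pde6b rd1 in every library. Mcm7 was called in Pde6b rd1 alone of the models, at 5.05, 4.98 and 4.20 FPKM against 2.82, 2.94 and 2.76 in C3H (log2 0.66, SE 0.08, adjusted p = 5.13e-07). Its levels in Pde6b rd10, 2.52 to 2.90 FPKM, overlapped C3H. Mcm3 was called in Pde6b rd10, at 1.01, 1.18 and 1.19 FPKM against 0.604, 0.565 and 0.632 (log2 0.85, SE 0.16, adjusted p = 0.000169), and in Pde6b rd1, where 1 library reached 1.17 FPKM and the others 0.854 and 0.706, its log2 fold change was 0.52 (SE 0.20). Mcm4, Mcm5 and Mcm6 were called in no model, with log2 fold changes from -0.14 to 0.40.

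Cdc6, which loads the helicase on origins, had 19 to 26 reads per library in Pde6b rd10 and 6 to 10 in C3H. Its levels were 0.201, 0.194 and 0.229 FPKM against 0.0963, 0.0477 and 0.0676, a log2 fold change of 1.52 (SE 0.34, edgeR adjusted p = 0.000893). No library of the other models except 1 of Pde6b rd1, at 0.159 FPKM, exceeded 0.1 FPKM. Ccne1, an E-type cyclin, went the other way in Pde6b rd1, at 0.946, 0.881 and 1.07 FPKM against 1.38, 1.59 and 1.44 in C3H (log2 -0.68, SE 0.17, adjusted p = 0.00189), a call that limma on log2(FPKM + 0.1) did not keep at -0.56. The second E-type cyclin, Ccne2, and the transcription factor E2f1 were called in no model, with log2 fold changes from -0.27 to 0.49.

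Of the 4 genes of DNA synthesis, Rrm2, the regulated subunit of ribonucleotide reductase, was called in Pde6b rd1 alone of the models. It was at 0.644, 0.762 and 0.599 FPKM there and at 0.109, 0.390 and 0.364 in C3H, on 32 to 39 against 6 to 26 reads (log2 1.11, SE 0.32, edgeR adjusted p = 0.00735). The lowest C3H library is the one labelled day 13, the day of the Pde6b rd1 libraries. Tyms, which makes thymidylate, had log2 fold changes of 0.54 (SE 0.12, adjusted p = 0.00103) in Pde6b rd1 and 0.34 in Pde6b rd10, both within 1.5-fold. Rrm1, the partner subunit of Rrm2, stayed between 3.09 and 3.72 FPKM in all 12 libraries.

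Pcna was at 18.5 to 19.1 FPKM in Pde6b rd10 and 13.6 to 15.4 in C3H, a log2 fold change of 0.33 (SE 0.06, edgeR adjusted p = 8.22e-05) within 1.5-fold. A processed pseudogene, Pcna-ps2, had 65 to 79 reads in C3H, 75 to 95 in Pde6b rd1, 86 to 94 in Prph rd2 and 0 to 4 in Pde6b rd10, so that reads of the pair can have been split differently between groups. Pcna levels are uncertain by that margin. Ccnb2-ps, with 11 to 43 reads per library, bears in the same way on Ccnb2, whose own counts were 13 to 36.

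Cdk1 and its cyclins were called higher in Pde6b rd1 for Cdk1 and Ccnb1 and in Pde6b rd10 for Ccna2. Cdk1, the kinase that starts mitosis, was at 0.306, 0.333 and 0.526 FPKM in Pde6b rd1 against 0.143, 0.185 and 0.164 in C3H (log2 1.15, SE 0.29, edgeR adjusted p = 0.00237). Ccnb1, its main mitotic cyclin, was called higher there on 22 to 27 against 11 to 20 reads, but with an adjusted p of 0.0575. The Ccnb1 call was lost without C3H replicate 1 (log2 0.72), C3H replicate 3 (0.64) or Pde6b rd1 replicate 2 (0.57). Ccna2, cyclin A2, was called in Pde6b rd10, at 3.48, 3.48 and 3.64 FPKM against 1.74, 1.84 and 1.36 in C3H (log2 1.04, SE 0.11, adjusted p = 4.9e-08), while in Pde6b rd1 the log2 fold change was 0.38 (SE 0.12, adjusted p = 0.00921).

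Ccna2 overlaps the antisense gene Exosc9, an exosome subunit, which was also called higher in Pde6b rd10 (log2 0.80, SE 0.07, edgeR adjusted p = 1.02e-08). Whether the counting used strand is not given in the sources used here, so reads of the 2 genes cannot be told apart where they overlap. Ccnb2, the second B-type cyclin, was called in no model against C3H, with log2 fold changes of 0.46, 0.48 and -0.25.

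**Figure D2:**
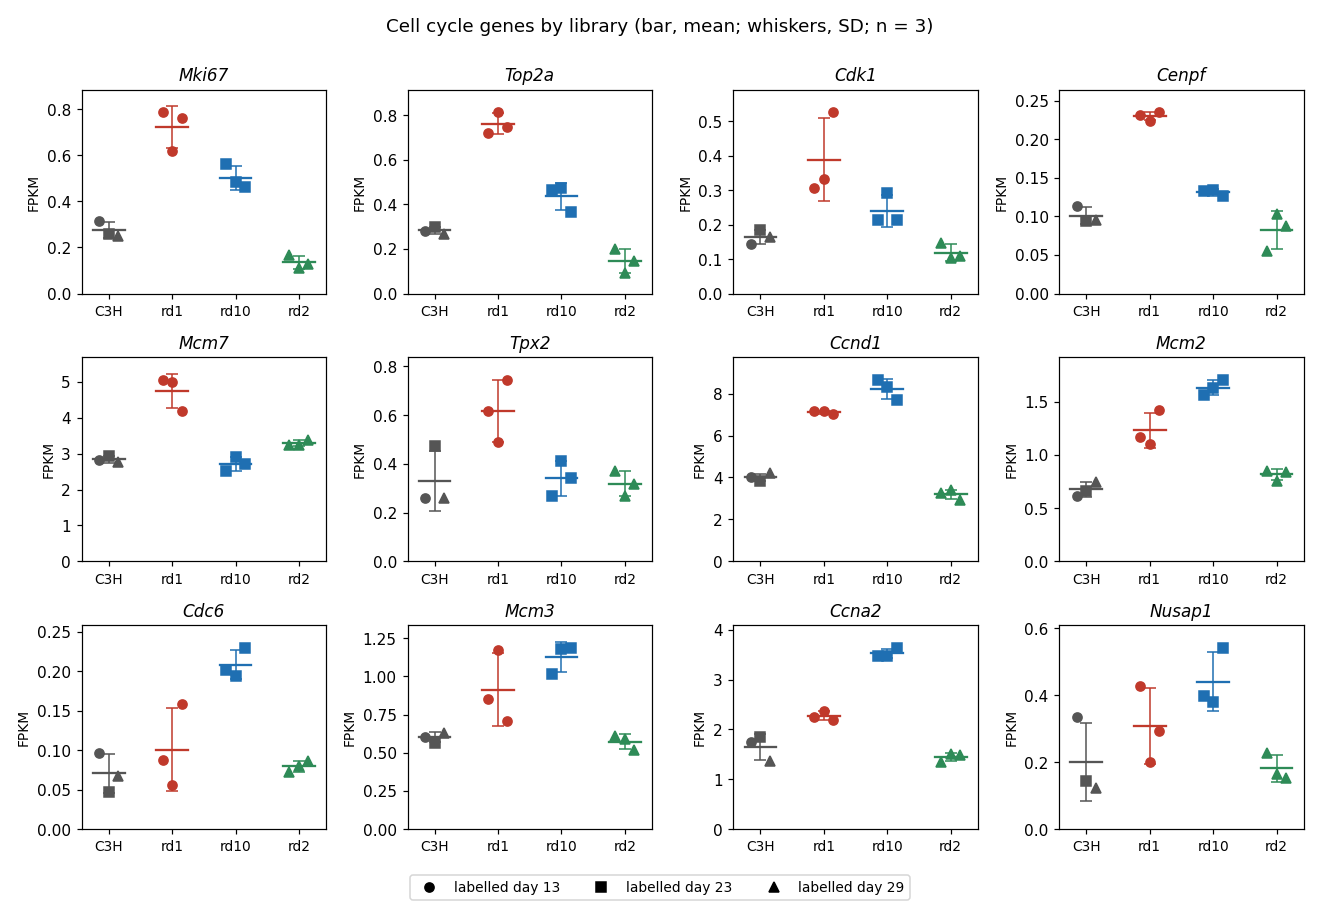
FPKM of 12 called members in each library by group (bar, mean; whiskers, SD; n = 3), with the labelled day as the marker shape. Mki67, Top2a, Cdk1, Cenpf, Mcm7 and Tpx2 stood highest in Pde6b rd1, and Ccnd1, Mcm2, Cdc6, Mcm3, Ccna2 and Nusap1 in Pde6b rd10.

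Bub1b differed from C3H in every model and was called lower in Pde6b rd1 and higher in Prph rd2, against the sign of most members there. It encodes BubR1, the checkpoint kinase that holds anaphase until all chromosomes are attached. Bub1b was at 1.14, 1.03 and 1.12 FPKM in C3H, 0.675, 0.645 and 0.704 in Pde6b rd1, 2.33, 1.67 and 2.07 in Prph rd2, and 4.21, 4.47 and 4.51 in Pde6b rd10. The 4 groups formed 4 separate ranges. It was 1.71-fold lower in Pde6b rd1 (log2 -0.77, SE 0.15, edgeR adjusted p = 0.0002), 1.81-fold higher in Prph rd2 (0.85, SE 0.14, adjusted p = 0.00115) and 3.86-fold higher in Pde6b rd10 (1.95, SE 0.10, adjusted p = 5.72e-13). In Pde6b rd10 this rested on 358 to 446 reads per library against 95 to 106 in C3H.

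Bub1b also hosted the only recurrent circular RNA among the members, read at least 2 times in at least 3 libraries. Of 12510 circRNAs in the circRNA table, 6 came from 4 members, with 25 back-splice junction reads in all. The circRNA at chr2:118631758-118635277 (+), within Bub1b (chr2:118598211-118641591), had 4, 2 and 2 junction reads in the Pde6b rd10 libraries and 0 in each of the other 9. A further 2 Bub1b circRNAs were likewise read in Pde6b rd10 libraries alone, for 16 of 64016 junction reads there and 0 of 53803 in C3H, where a count of 0 allows up to 3 reads.

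Of the other checkpoint, kinase and passenger complex genes, 2 were called higher in Pde6b rd1, where 8.98% of all genes were called higher. Cdc20, which turns on the anaphase-promoting complex, was at 0.956, 1.00 and 1.03 FPKM in Pde6b rd1 against 0.458, 0.557 and 0.648 in C3H (log2 0.77, SE 0.26, edgeR adjusted p = 0.0187). Its antisense neighbour Elovl1 was not called there (log2 -0.22). Birc5, or survivin, was called in Pde6b rd1 with an adjusted p of 0.0464 on 12 to 23 against 3 to 15 reads, and the groups overlapped. The Birc5 call was lost without C3H replicate 2 (log2 0.93) or 3 (0.78), without Pde6b rd1 replicate 2 (1.04) or 3 (0.90), and against the C3H library labelled day 13 alone (0.20).

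Bub1, the partner kinase of BubR1, was called lower in Prph rd2 on 9 to 15 against 14 to 26 reads (log2 -0.79, SE 0.34), with an edgeR adjusted p of 0.179. Bub1 was over the filter in all libraries of C3H but not in all of Prph rd2. Its call was lost with C3H replicate 1 (-0.84) or 2 (-0.58) left out, with Prph rd2 replicate 1 (-0.84) or 2 (-0.60) left out, and in DESeq2. The mitotic kinase Aurka, the kinase Plk1 and the passenger subunit Cdca8 were called in no model against C3H. Plk1 had log2 fold changes of -0.41 (adjusted p = 0.0866) and -0.46 (adjusted p = 0.0472) in the Pde6b models.

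Of the 8 genes of kinetochore, spindle and cytokinesis, 3 were called higher in Pde6b rd1, beside 8.98% of all genes. In Pde6b rd10, 1 was called higher and 2 lower, beside 15.9% and 8.08% of all genes. Cenpf, a kinetochore protein of G2 and mitosis, was at 0.231, 0.224 and 0.235 FPKM in Pde6b rd1 against 0.114, 0.0943 and 0.0948 in C3H (log2 1.12, SE 0.19, edgeR adjusted p = 3.97e-05). Tpx2, which activates Aurora A on the spindle, was at 0.617, 0.489 and 0.744 FPKM against 0.259, 0.471 and 0.259 (0.81, SE 0.24, adjusted p = 0.00869), its highest C3H library close to the lowest of Pde6b rd1. The kinesin Kif20a was called on 32 to 42 against 23 to 28 reads (0.60, SE 0.25) with an adjusted p of 0.0575, and lost the call without C3H replicate 1 (0.58) or 2 (0.58), without Pde6b rd1 replicate 3 (0.47), in DESeq2 and with all 12 libraries in 1 fit.

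In Pde6b rd10, Nusap1, a spindle microtubule protein, was at 0.398, 0.382 and 0.542 FPKM against 0.335, 0.143 and 0.124 in C3H (log2 1.09, SE 0.32, edgeR adjusted p = 0.00632). Prc1 (chr7:80294450-80316259), which bundles microtubules in the midzone for cytokinesis, was the member with the largest fall there, at 0.172, 0.201 and 0.298 FPKM against 0.514, 0.460 and 0.479. It was 2.27-fold lower in Pde6b rd10 (log2 -1.18, SE 0.19, adjusted p = 2.88e-05) and at 0.581 to 0.706 FPKM in Prph rd2. Rccd1, a gene that overlaps Prc1 on the other strand, was called lower in Pde6b rd10 by nearly as much (-1.05, SE 0.09, adjusted p = 4.21e-09). Which of them the reads of the overlap came from was not tested.

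Cenpe, the kinetochore motor, was at 0.909, 0.675 and 0.945 FPKM in Pde6b rd10, below the 1.34, 1.14 and 1.33 of C3H (log2 -0.63, SE 0.12, edgeR adjusted p = 0.000133). Without Pde6b rd10 replicate 2 the value was -0.51 and within 1.5-fold, and against the C3H library labelled with the same day it was -0.48. In Prph rd2 all libraries lay above C3H, at 2.02, 1.81 and 1.90 FPKM (0.56, SE 0.09, adjusted p = 0.00142), a difference that passed 1.5-fold only without C3H replicate 1 (0.60), C3H replicate 3 (0.60) or Prph rd2 replicate 2 (0.61). The kinesins Kif11 and Kif23 were called in no model.

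**Figure D3:**
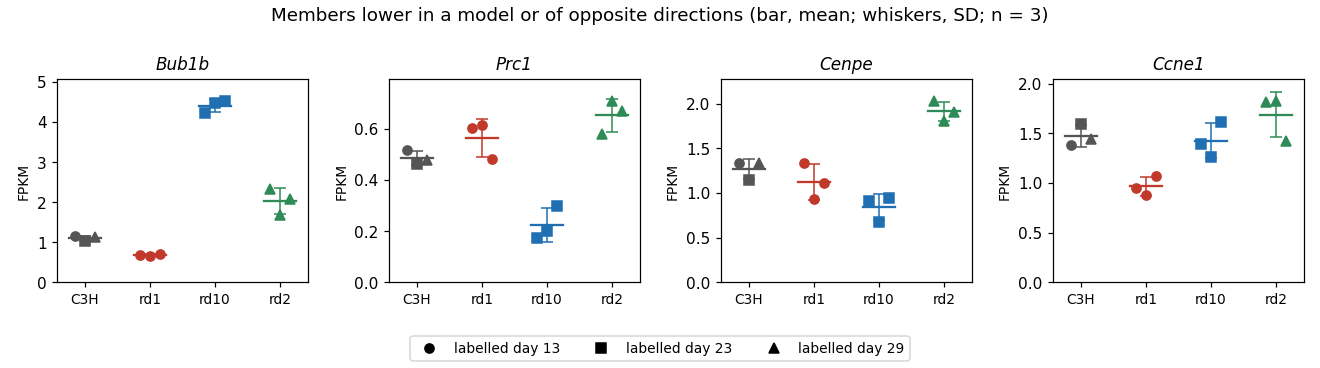
FPKM of Bub1b, Prc1, Cenpe and Ccne1 in each library by group (bar, mean; whiskers, SD; n = 3), with the labelled day as the marker shape. Bub1b lies at 0.645 to 0.704 FPKM in Pde6b rd1 and 4.21 to 4.51 in Pde6b rd10, and Prc1 is lowest in Pde6b rd10.

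The C3H libraries carry a different labelled day each, and the members showed no common order over them. The highest C3H level fell on day 13 for 13 members, on day 23 for 16 and on day 29 for 8, with 1 library a day. The 3 C3H libraries were close to each other, with a chi-square per degree of freedom of 1.71 to 2.79 over genes. Among the Pde6b rd1 libraries of a single day it was 1.67 to 3.33. Summed rod markers in C3H were 4636 to 4740 FPKM. Glul, a Mueller glia marker, was at 523 to 536 FPKM in C3H and 188 to 194 in Pde6b rd1. Whether the C3H libraries differ in day as labelled cannot be told from these values. A day term that rests on them may therefore not adjust for day. Calls kept with it, here and below, settle nothing on the part of day. With day as a term in a fit of all 12 libraries, which sets each model against the 1 C3H library of its own day and assumes that it varies like the others, 10 of the 13 higher calls in Pde6b rd1 were kept, while Birc5, Ccnb1 and Kif20a were lost and Plk1 was newly called lower (-0.62). All 8 higher calls in Pde6b rd10 were kept, with Bub1b at 2.04 and Ccnd1 at 1.05 on the log2 scale. Mki67, Top2a and Bub1b kept their calls in Prph rd2, at -0.93, -0.91 and 0.81, although the adjusted p of Mki67 rose to 0.0778 and that of Top2a to 0.137.

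The Pde6b models, with different mutations of 1 gene, were set against each other in a fit of all 12 libraries. Day, sex and, per the methods, strain differ with the mutation here. The Y-linked Ddx3y had 0 reads in Pde6b rd1 and 1056 to 1696 in Pde6b rd10. In Pde6b rd10 over Pde6b rd1, 4 of 36 members were called higher and 12 lower, where 17.6% of 19616 genes were called higher and 11.2% lower. All 16 kept an adjusted p under 0.05, where the shares of all genes were 17.1% and 10.6%. The lower members were 5 of the 8 kinetochore, spindle and cytokinesis genes (Prc1, Cenpf, Kif20a, Kif23 and Tpx2), 3 of the 7 checkpoint and passenger genes tested (Bub1, Cdc20 and Cdca8), Cdk1, Top2a, Rrm2 and Mcm7. The higher members were Bub1b, Cdc6, Ccna2 and Ccne1. Between these models, Bub1 and Kif23 were over the filter in all libraries of Pde6b rd1 alone. Cdc6 was so in Pde6b rd10 alone, each the group where it was higher. Bub1b was 6.70-fold higher in Pde6b rd10 (log2 difference 2.74, SE 0.12, edgeR adjusted p = 1.97e-13), and Prc1 2.47-fold lower (-1.30, SE 0.18, adjusted p = 4.52e-06).

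Several of these calls rested on single libraries. Kif20a was not called without Pde6b rd1 replicate 3 (log2 difference -0.50), Pde6b rd10 replicate 1 (-0.59) or Pde6b rd10 replicate 2 (-0.56). Kif23 was not called without Pde6b rd1 replicate 2 (-0.71), Pde6b rd10 replicate 2 (-0.71) or Pde6b rd10 replicate 3 (-0.90), and Cdca8 not without Pde6b rd1 replicate 2 (-0.72). Cdk1 lost its call without Pde6b rd1 replicate 3 (-0.37), Pde6b rd10 replicate 1 (-0.58) or Pde6b rd10 replicate 3 (-0.59), and Bub1 without Pde6b rd1 replicate 1 (-0.57) or Pde6b rd10 replicate 1 (-0.65). For Rrm2 the libraries were Pde6b rd1 replicate 2 (-0.79), Pde6b rd10 replicate 1 (-0.66) and Pde6b rd10 replicate 2 (-0.77), and for Ccne1 Pde6b rd1 replicate 1 (0.58), Pde6b rd1 replicate 2 (0.54) and Pde6b rd10 replicate 3 (0.51). With day as a term, the calls of Bub1, Cdc20, Cdca8, Cdk1, Cenpf, Kif20a and Kif23 among the 12 lower members and of Ccne1 among the higher were lost. In all 7 members were then called lower and 4 higher, Mcm5 (-0.83), Kif11 (-0.85) and Nusap1 (1.74) being new among them, while Bub1b stood at 2.89 and Prc1 at -1.15.

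Against Prph rd2, Pde6b rd10 had 13 of 36 members called higher and 3 lower, where 13.5% of all genes tested were called higher and 6.16% lower. With the adjusted p, 11 were higher and 3 lower, beside 12.8% and 5.58% of all genes. Mki67 was 3.66-fold higher (log2 difference 1.87, SE 0.18, edgeR adjusted p = 3.37e-08), Top2a 2.92-fold (1.55, SE 0.20, adjusted p = 2.91e-06) and Ccnd1 2.54-fold (1.35, SE 0.07, adjusted p = 1.83e-12). The other higher members were Cdc6, Mcm2, Mcm3, Ccna2, Cdk1, Bub1b, Cenpf and Nusap1, with Ccnb2 and Rrm2 at adjusted p of 0.0525 and 0.0934. Between these models, Cdc6 and Rrm2 were over the filter in all libraries of Pde6b rd10 alone. Prc1 was 2.98-fold lower (-1.57, SE 0.18, adjusted p = 3.37e-07), Cenpe 2.28-fold lower (-1.19, SE 0.12, adjusted p = 1.15e-07), and Plk1 was lower by 0.63 on the log2 scale. The call of Plk1 was lost without Prph rd2 replicate 3 (-0.58), Pde6b rd10 replicate 1 (-0.56) or Pde6b rd10 replicate 3 (-0.58), that of Cenpf without Prph rd2 replicate 1 (0.44), that of Ccnb2 without Prph rd2 replicate 1 (0.67) or Pde6b rd10 replicate 1 (0.55), and that of Rrm2 without Prph rd2 replicate 1 (0.87), Prph rd2 replicate 3 (0.64) or Pde6b rd10 replicate 3 (0.50). With day as a term, 7 members were called higher (Mki67, Top2a, Ccnd1, Mcm2, Mcm3, Ccna2 and Bub1b) and Prc1 and Cenpe lower.

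**Figure D4:**
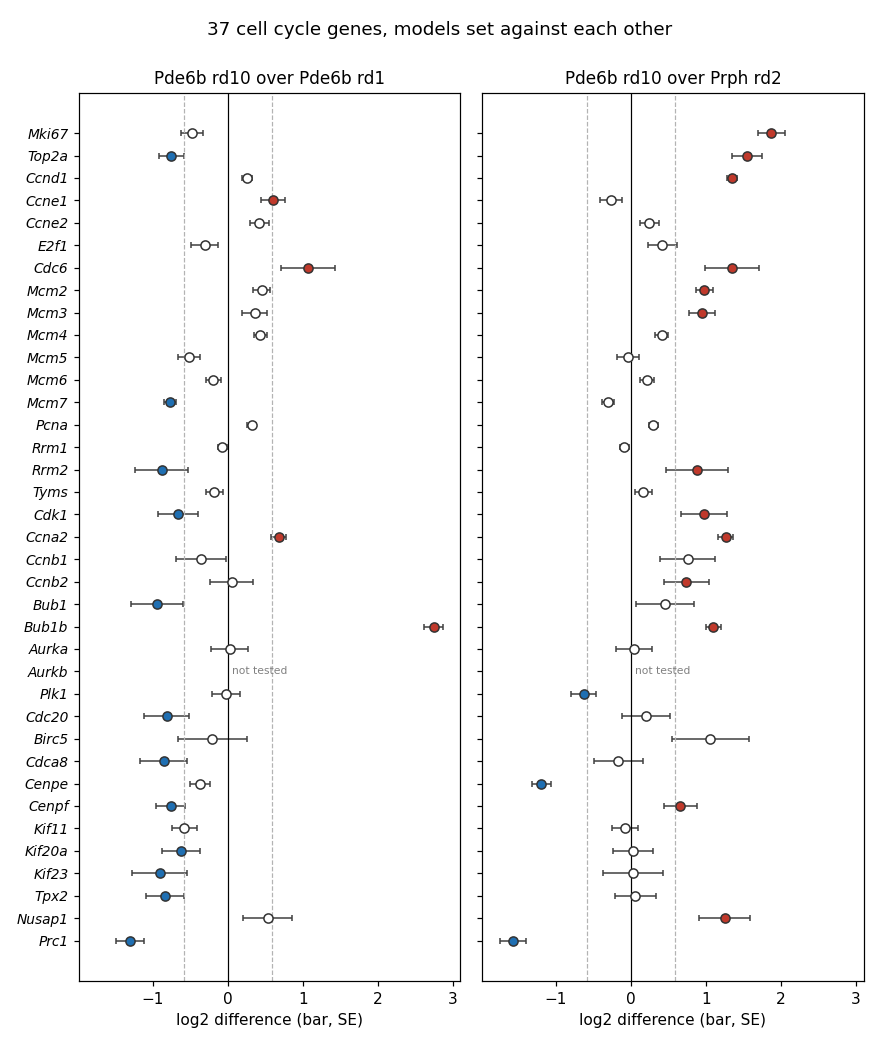
Log2 difference of each of the 37 genes between Pde6b rd10 and each of the other models (point, edgeR estimate; bar, SE), red where called higher in Pde6b rd10, blue where called lower and white where not called, with dashed lines at a fold of 1.5. Bub1b is higher by 2.74 against Pde6b rd1, and 12 members are lower.

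A further 103 genes of the same pathway, listed by function, gave the wider picture. In Pde6b rd1, 13 of the 94 tested (13.83%) were called higher and 3 (3.191%) lower, beside 8.98% and 6.03% of all genes. Among the higher were Cdk6, a partner of D-type cyclins (log2 0.65, SE 0.05, edgeR adjusted p = 3.36e-11), Anln, a scaffold of the cleavage furrow (1.01, SE 0.21), and Gins1, of the helicase complex (1.28, SE 0.34). Pbk, a mitotic kinase, had 11 to 18 reads against 1 to 6 in C3H, and Gins1 had 21 to 25 against 8 to 12. With so few reads in C3H, both can have passed the filter through Pde6b rd1 alone, which favours a call. The counts and shares of this list are not corrected for that. Spc25, of the NDC80 kinetochore complex, was called lower (-0.94, SE 0.11, adjusted p = 1.24e-07), as was Wee1, which restrains Cdk1 (-0.66, SE 0.12).

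In Pde6b rd10, 13 of 91 (14.29%) were called higher, near the 15.9% of all genes, and 12 (13.19%) lower, beside 8.08%. E2f6, an E2F factor that represses its targets, rose 3.91-fold (log2 1.97, SE 0.06, edgeR adjusted p = 3.88e-17), from 377 to 465 reads in C3H to 1470 to 1888. Pttg1, or securin, which guards sister chromatids until anaphase, had 221, 155 and 152 reads in Pde6b rd10 and 1 to 9 in each of the other 9 libraries (5.36, SE 0.25, adjusted p = 2.37e-13). With 1 to 6 reads in C3H, Pttg1 can have passed the filter through Pde6b rd10 alone. Per the methods, Pde6b rd10 is also the only group of another strain, so strain and mutation cannot be told apart for these genes. Spc25 rose by 1.59 (SE 0.07) and the D-type cyclins Ccnd2 and Ccnd3 by 1.27 (SE 0.07) and 0.60 (SE 0.05). Racgap1, which works with Kif23 in cytokinesis, fell by 1.37 (SE 0.09, adjusted p = 3.55e-11), E2f3 by 0.74 (SE 0.05) and Cdk6 by 0.61 (SE 0.06). Like Bub1b, Spc25 was thus lower in Pde6b rd1 and higher in Pde6b rd10. So was Mcm10, of the origin firing and fork genes, at -1.12 (SE 0.35) and 1.47 (SE 0.22). It had 7 to 13 reads in Pde6b rd1, 16 to 26 in C3H and 50 to 70 in Pde6b rd10.

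In Prph rd2, 0 of 91 genes of the list were called higher and 4 (4.396%) lower by edgeR, beside 2.68% and 1.89% of all genes, with 7 higher at an unadjusted p under 0.05 without the fold threshold. Uhrf1, which copies DNA methylation at the fork, was called lower on 7 to 11 against 16 to 24 reads (log2 -1.34, SE 0.34, adjusted p = 0.0233). With so few reads in Prph rd2, Uhrf1 can have passed the filter through C3H alone, its higher group. The CDK inhibitors, the brakes of the cycle, were called against C3H in Pde6b rd10 alone, 1 higher and 1 lower. Cdkn1c, or p57, fell by 1.22 (SE 0.08, adjusted p = 7.41e-11), from 527 to 632 reads in C3H to 212 to 333. Cdkn2b was called higher with an adjusted p of 0.0556, but 1 library had 51 reads and the others 18 and 22, near the 14 to 19 of C3H. Cdkn1a, or p21, had log2 fold changes of 0.35, 0.00 and -0.51 for Pde6b rd1, Pde6b rd10 and Prph rd2, Cdkn2c of -0.43, 0.53 and -0.12, and Cdkn1b and Cdkn2d of -0.15 to 0.02. Cdkn2a, with at most 7 reads per library, was not tested.

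Markers of the cell types that the retina can hold moved with some of these groups. The 12 microglia markers summed to 130 to 145 FPKM in Pde6b rd10 and to 42.0 to 47.8 in the other 3 groups, and 11 of the 12 were called higher in Pde6b rd10. The 7 monocyte and macrophage markers summed to 10.9 to 12.2 FPKM there against 4.998 to 5.42 in C3H. They summed to 2.19 to 2.51 in Pde6b rd1 and 6.547 to 6.815 in Prph rd2. Lyve1 alone made up most of the sum in C3H, at 4.56 to 5.15 FPKM, and in Pde6b rd1, at 1.99 to 2.35. Against C3H, 6 were called higher in Pde6b rd10, and of the 2 tested in Pde6b rd1, 1 was called lower. Ccr2, Ms4a7 and Plac8 had no more than 3 reads in every C3H and Pde6b rd1 library. In the Pde6b rd10 comparison they passed the filter through that model alone, so their calls are given no weight. The astrocyte list, led by Gfap, summed to 102 to 110 FPKM in Pde6b rd10 and 18.3 to 22.4 elsewhere. In Pde6b rd1, microglia markers summed to 46.4 to 47.1 FPKM, within the C3H range of 45.9 to 47.8. Of the 11 tested, Trem2 alone was called higher (log2 0.72, SE 0.21, edgeR adjusted p = 0.00799). Which cells held the RNA of the cell cycle genes was not tested.

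Among markers of retinal progenitors, the proneural factor Neurog2 was at 3.95, 2.87 and 2.91 FPKM in Pde6b rd1 and at 1.95, 2.30 and 2.09 in C3H, and Sfrp2, a secreted Wnt modulator, was at 1.45, 1.69 and 1.33 against 1.01, 0.966 and 1.13. Both lay above every C3H library without being called, at log2 fold changes of 0.55 and 0.45, and the growth regulators Hmga2 and Lin28b of the same list were not called there either, at 0.42 and 0.32. In Pde6b rd10, Neurog2 and Sfrp2 were called lower, at -0.67 and -0.80, while Hmga2 was called higher (1.28, SE 0.21) and Lin28b was at -0.01. Rod markers summed to 2294 to 2338 FPKM in Pde6b rd1 and 4636 to 4740 in C3H, and 5 of the 8 were called lower. Mueller glia markers summed to 589 to 599 and 990.1 to 1010.0 FPKM, but 4 of the 10 were called lower and 1, Crym, higher, and Glul alone, at 188 to 194 against 523 to 536 FPKM, made up most of the difference in the sum. T and B cell markers summed to 1.04 to 1.34 FPKM in Pde6b rd10 and at most 0.342 elsewhere, and neutrophil markers to 1.08 to 1.46 and at most 0.501. Of the 9 T and B cell genes only Cd8a was tested there against C3H, and called higher, on 27 to 35 reads against 0 to 2. It passed the filter through Pde6b rd10 alone, so its call is given no weight. Of the 5 neutrophil genes 0 were tested. Cd3d, Cd3e, Cd79a, Ms4a1, Ngp, Camp and Mpo had at most 3 reads in every Pde6b rd10 library. Endothelial markers summed to 75.6 to 82.4 FPKM in Pde6b rd10 against 92.4 to 96.0 in C3H, where Kdr, at 30.5 to 31.6 against 44.7 to 45.4 FPKM, made up most of the difference, 2 of the 10 were called lower and the median log2 fold change was -0.003. Pericyte markers summed to 34.7 to 36.6 FPKM in Pde6b rd1 against 49.1 to 51.5, with 1 of 7 called lower. What part a change in the mix of cells has in the levels of the cell cycle genes was not tested.

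**Figure D5:**
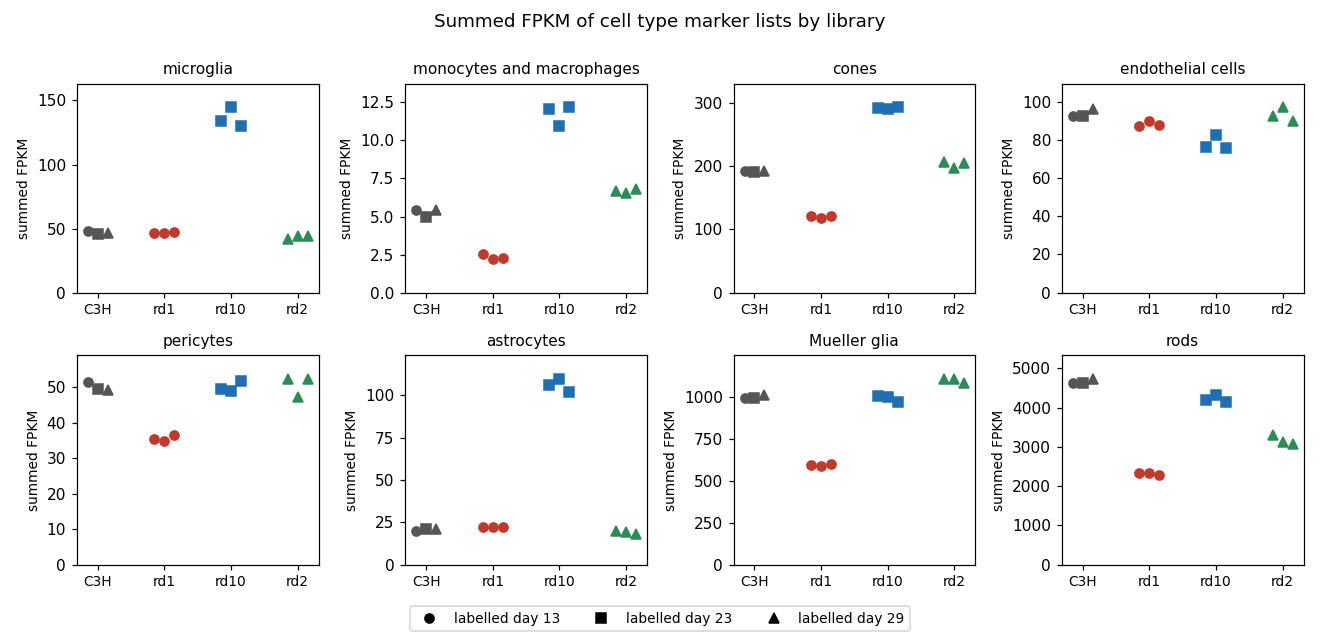
Summed FPKM of 8 cell type marker lists in each library by group, with the labelled day as the marker shape. Microglia, monocyte, astrocyte and cone lists stand highest in Pde6b rd10, and the rod, cone, pericyte and Mueller glia lists are lowest in Pde6b rd1.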

How the data were processed

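Total RNA of whole retina was depleted of ribosomal RNA and sequenced from a directional library kit. The authors aligned reads to GRCm38 and counted them on genes with HTSeq 0.11.2, per the submitters' processing notes. The deposited table holds raw counts per gene and FPKM, and a second deposited table holds circRNA junction counts and TPM. The notes also name HISAT2 and TopHat2 2.1.1. Whether counting used strand is not given in the sources used here. Libraries were grouped by their labels.

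From the counts, all genes passing edgeR's filter were fitted in R 4.3.3 with edgeR 4.0.16 (TMM, quasi-likelihood test), each model against C3H alone (6 libraries), and Pde6b rd10 against each other model in a fit of 12. Thresholds were p under 0.05 and a fold of 1.5, as in the study. DESeq2 1.42.0 and limma 3.58.1 on log2(FPKM + 1 or 0.1) were alternatives, and the fit was tested on simulated counts. SEs are edgeR estimates divided by the root of their F statistic. TPM was not tested. The replicate number was tried as a block. Gene positions came from GENCODE vM21, matched for 32852 of 32867 IDs, and promoters from RefSeq GRCm38.p6, read in Python 3.11.15. Counting limits and intervals cover counting error only.

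The members, the pathway list and the markers were chosen with earlier results of these data known. All 37 members are described, members called with values per library. Of the pathway list, at most 6 genes per comparison and direction could be named, by smallest p among those with an adjusted p under 0.05 and groups that do not overlap, plus the CDK inhibitors. A marker of the progenitor list, and the sum of that list, are not reported here.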

Additional observations from a re-analysis of the deposited data

Results flagged for a closer look

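In the direct comparison of Pde6b rd10 with Pde6b rd1, the log2 difference passed the test for 16 members. The calls of Cdc6, Bub1 and Kif23 are given no weight. Between these models, each was over the filter in all libraries of its higher group alone. The log2 difference was 2.74 for Bub1b, 1.07 for Cdc6, 0.68 for Ccna2 and 0.60 for Ccne1. It was -1.30 for Prc1, -0.94 for Bub1, -0.91 for Kif23, -0.88 for Rrm2, -0.85 for Cdca8, -0.83 for Tpx2, -0.81 for Cdc20, -0.77 for Mcm7, -0.76 for Cenpf, -0.75 for Top2a, -0.66 for Cdk1 and -0.62 for Kif20a.

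Between Pde6b rd10 and Prph rd2 the listed differences are those of members with an adjusted p under 0.05. They were 1.87 for Mki67, 1.55 for Top2a, 1.35 for Ccnd1, 1.35 for Cdc6, 1.26 for Ccna2, 1.25 for Nusap1, 1.10 for Bub1b, 0.98 for Mcm2, 0.98 for Cdk1, 0.95 for Mcm3 and 0.66 for Cenpf. They were -1.57 for Prc1, -1.19 for Cenpe and -0.63 for Plk1. Here too Cdc6 was over the filter in all libraries of Pde6b rd10 alone, so its call is given no weight. Day, sex, and strain as far as it differs, cannot be told apart from the mutation in either comparison.

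Outside the gene counts, the circRNAs of Bub1b had 16 back-splice junction reads in Pde6b rd10 and 0 in C3H, Pde6b rd1 and Prph rd2. The linear Bub1b counts were highest in the same libraries, and no test was run on so few reads.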

How the results depend on the processing

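No member's called value changed sign. Of 61 member calls, 39 were lost under no alternative other than limma on log2(FPKM + 1), DESeq2 lost 5 and the adjusted p 5. The counts of members called higher and lower follow in the order Pde6b rd1, Pde6b rd10 and Prph rd2 over C3H, then Pde6b rd10 over Pde6b rd1 and over Prph rd2. On log2(FPKM + 1) they were 1 and 0, 4 and 0, 0 and 0, 1 and 1, and 3 and 1. On log2(FPKM + 0.1), 1 was lower in Pde6b rd1 and 1 in Pde6b rd10. Without a fold threshold, 13 were higher and 4 lower in Pde6b rd10, 3 and 5 in Prph rd2, and 10 higher over Pde6b rd1. With day as a term, 1 was lower in Pde6b rd10, 7 lower over Pde6b rd1 and 7 higher over Prph rd2. Leaving out 1 library gave 12 to 15 and 2 to 2, 8 to 10 and 1 to 2, 1 to 2 and 2 to 4, 3 to 4 and 9 to 12, and 11 to 14 and 2 to 3.

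For the 103 pathway genes, in the same order, dropping the fold threshold gave 33 and 13, 23 and 28, 7 and 11, 21 and 33, and 29 and 26. On log2(FPKM + 1), 1 and 1, 4 and 4, 0 lower in Prph rd2, 6 and 8, and 4 and 1 were called. On log2(FPKM + 0.1), 8 and 1 were called in Pde6b rd1 and 2 lower in Prph rd2. A mean of at least 1 CPM left 7 higher in Pde6b rd1, 1 lower in Prph rd2 and 12 higher over Prph rd2, where the day term left 11. Leaving out 1 library gave 10 to 13 and 3 to 4, 11 to 13 and 12 to 13, 0 to 0 and 3 to 7 (7 without Prph rd2 replicate 2), 9 to 12 and 15 to 21, and 17 to 22 and 8 to 10. The causes were not tested.

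The replicate numbers were tried as a block, although same-numbered libraries deviated together with correlations of only -0.115 to 0.323 across genes, so the numbers were not taken as pairs. Under the block 13 members were higher and 2 lower in Pde6b rd1, 9 and 2 in Pde6b rd10, 1 and 2 in Prph rd2, 4 and 12 over Pde6b rd1, and 15 and 3 over Prph rd2, and the call lost was Bub1 in Prph rd2 (-0.78). Counts were low for Cdc6, with 5 to 26 reads per library, Birc5, with 3 to 23, and Kif23, with 7 to 24.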
